A study of Mus musculus with 9 samples.

Results

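Transcripts of the receptors and SMAD proteins that carry transforming growth factor beta (TGF-beta) and bone morphogenetic protein (BMP) signals were followed in mouse regulatory T cells (Tregs) with and without the histone methyltransferase Ezh2. The 10 genes were chosen by symbol: Tgfbr1, Tgfbr2, Tgfbr3, Acvr1, Bmpr2, Smad1, Smad2, Smad3, Smad6 and Smad7. All 10 were among the 43432 Ensembl genes of the count table, and 9 of them passed the filter on low counts and were tested, Smad6 being too low. RNA was sequenced from 9 cultures of Tregs sorted as CD62L-high, stimulated with beads that carry antibodies to CD3 and CD28, and grown in 2000 U/ml interleukin-2 to day 4. The labels list no added TGF-beta or BMP.

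All mice were C57BL/6, of an age not given in the sources used here, and carried Foxp3-Cre-GFP, a Cre recombinase expressed from Foxp3, and the R26-LSL-RFP reporter. The 4 Ezh2-deficient libraries came from Ezh2-fl/fl mice. WT replicates 2 to 5 came from Ezh2-+/+ mice, and WT replicate 1 from an Ezh2-fl/+ mouse with 1 floxed allele. Cre acts only in cells that express or have expressed Foxp3. Total counts were 33718125 to 62201921 per Ezh2-deficient and 32469450 to 59796319 per WT library. Ezh2 was at 152 to 167 CPM (counts scaled to library size) in the Ezh2-deficient libraries and 233 to 360 CPM in WT, as a sum over the whole gene that includes transcripts lacking only the floxed part. All 8 Treg markers examined, among them Foxp3, Il2ra and Ctla4, were at 206 CPM or more in every library. Of these 8, Foxp3 alone passed the edgeR test described below, at 1647 to 1967 CPM in Ezh2-deficient libraries against 1293 to 1541 CPM (adjusted p = 0.0313), and it passed in 12 of 22 alternatives. Libraries of both groups differed in hypoxia-response transcripts: over 24 genes, Ezh2-deficient replicates 1 and 4 and WT replicates 1, 2 and 4 had high scores (0.46 to 0.90), and the other 4 libraries low scores (-0.88 to -0.80). The CD8 T cell gene Cd8a was highest in Ezh2-deficient replicate 4 (79.9 CPM) and WT replicate 4 (97.6 CPM).

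TGF-beta ligands bring together the type II receptor TGFBR2 and the type I receptor TGFBR1, a kinase that phosphorylates SMAD2 and SMAD3. BMP ligands use the type II receptor BMPR2 with type I receptors such as ACVR1 and BMPR1A, which phosphorylate SMAD1, SMAD5 and SMAD9. The phosphorylated SMADs enter the nucleus with SMAD4, and SMAD6 and SMAD7 are inhibitory SMADs induced as feedback. In T cells, TGF-beta signalling induces Foxp3 in the periphery and restrains effector responses. Ezh2 is the methyltransferase of the Polycomb complex PRC2, which marks histone H3 at lysine 27 and in mammals occupies gene starts rich in CpG dinucleotides.

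The promoters of the members are shown because CpG-rich starts are where that complex is known to act. The RefSeq table (GRCm38.p6) held 8 promoters for 7 members, each with 250 bases before and 50 after a start. Of the 32851 promoters in the table, 34.6% had at least 15 CpG dinucleotides, the median was 7 and the upper quartile 20. That cut of 15 equals the value of Tgfbr2, the lowest in the list that follows. The members had 25 in Smad3, 23 in Bmpr2, 31 in Smad1, 31 in Smad6, 51 in Acvr1, 15 in Tgfbr2 and 34 at the upstream start of Tgfbr1. Counts of at least 15 occurred both in members that passed the test described below and in Tgfbr1 and Acvr1, which did not. Tgfbr3, Smad2 and Smad7 had no entry. Whether CpG content goes with the changes was not tested. The downstream start of Tgfbr1 had 3. In the first 3 sequences, from Smad3 (chr9:63757945-63758244, minus strand), Bmpr2 (chr1:59764029-59764328, plus strand) and Tgfbr1 (chr4:47352972-47353271, plus strand), capitals mark CpG dinucleotides. The start inside the Bmpr2 entry, after its first 250 bases, lies 879 bases downstream of the gene start in GENCODE M21. Those of Acvr1 and Smad1 lie 329 and 90 bases downstream. In the fourth, from Smad6 (chr9:64022010-64022309, minus strand), capitals mark GTCTAGAC, a palindrome of the SMAD recognition sequence.
Smad3: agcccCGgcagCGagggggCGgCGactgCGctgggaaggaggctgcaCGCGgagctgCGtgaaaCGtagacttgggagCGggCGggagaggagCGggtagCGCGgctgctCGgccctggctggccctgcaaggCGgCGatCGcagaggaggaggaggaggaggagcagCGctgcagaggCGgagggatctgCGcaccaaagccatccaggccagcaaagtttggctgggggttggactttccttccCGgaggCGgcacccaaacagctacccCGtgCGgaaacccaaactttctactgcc
Bmpr2: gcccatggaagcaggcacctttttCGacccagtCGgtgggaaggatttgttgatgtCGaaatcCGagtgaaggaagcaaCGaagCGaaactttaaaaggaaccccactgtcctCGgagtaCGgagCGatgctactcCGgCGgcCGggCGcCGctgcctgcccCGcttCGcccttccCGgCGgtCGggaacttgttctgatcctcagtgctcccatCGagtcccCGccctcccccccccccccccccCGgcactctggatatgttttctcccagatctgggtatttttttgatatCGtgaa
Tgfbr1: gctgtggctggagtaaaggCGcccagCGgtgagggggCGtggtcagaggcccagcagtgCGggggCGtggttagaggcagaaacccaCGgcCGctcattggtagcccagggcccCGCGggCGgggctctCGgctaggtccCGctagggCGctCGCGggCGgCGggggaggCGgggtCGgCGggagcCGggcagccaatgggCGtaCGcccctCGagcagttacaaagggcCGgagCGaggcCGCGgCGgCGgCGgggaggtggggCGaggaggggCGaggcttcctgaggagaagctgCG
Smad6: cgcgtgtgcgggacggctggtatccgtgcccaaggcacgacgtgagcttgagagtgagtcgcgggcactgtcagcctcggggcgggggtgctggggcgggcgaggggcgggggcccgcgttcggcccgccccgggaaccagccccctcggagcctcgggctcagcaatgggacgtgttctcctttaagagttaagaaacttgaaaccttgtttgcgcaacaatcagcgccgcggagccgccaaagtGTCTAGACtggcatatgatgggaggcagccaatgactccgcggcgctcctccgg
Searched on both strands, GTCTAGAC occurred in Smad6 alone among these members and in 0.213% of all promoters in the table, and it begins 4 bases upstream of the start. The shorter SMAD box CAGAC, which GTCTAGAC does not contain, occurred in Tgfbr2 and at the downstream start of Tgfbr1, and in 49.6% of all promoters. GGCGCC, a GC-rich sequence bound by SMADs, occurred once each in Bmpr2 and at the upstream start of Tgfbr1, and in 11.9% of all promoters.

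Ezh2-deficient Tregs had higher transcript levels of 5 of the 9 tested members: Smad3, Tgfbr3, Smad1, Bmpr2 and Tgfbr2. The other 4, Tgfbr1, Acvr1, Smad2 and Smad7, did not pass the test. Changes are log2 fold changes, Ezh2-deficient over WT, from edgeR's quasi-likelihood F-test with Benjamini-Hochberg adjusted p under 0.05 as the threshold. Among all 13685 genes tested 21.9% passed, 13.1% as higher and 8.8% as lower. The fitted fold change was above 0 for all 9 tested members, as it was for 50.4% of all tested genes, and the median was 0.35 over the 9 and 0.00 over all genes tested. Values of the groups were fully separate for 4 of the 9 members, against 21.2% of all tested genes. In bulk RNA a change in the RNA per cell and a change in which cells the culture holds cannot be told apart.

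**Figure D1:**
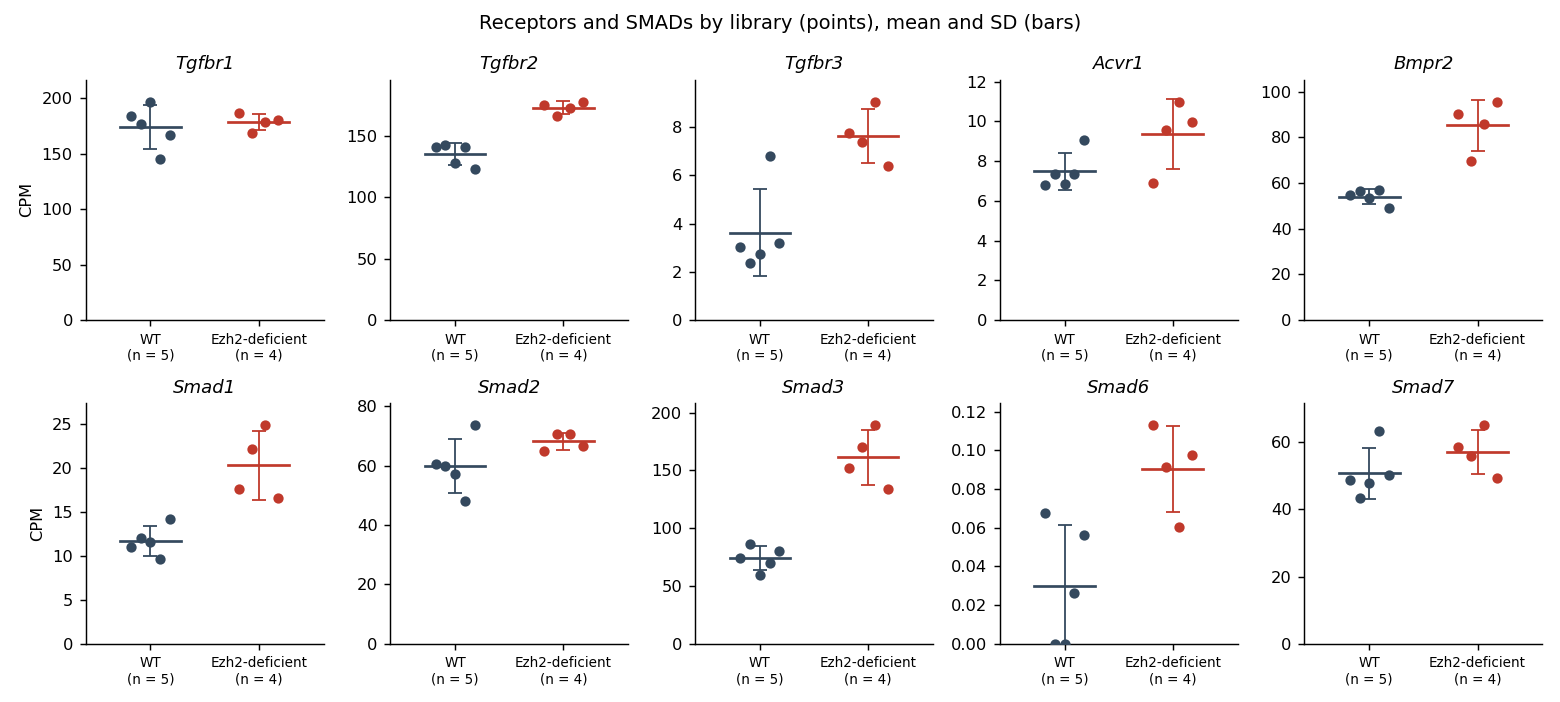
CPM of the 10 genes in each library (points), with the mean and SD of the 5 WT and 4 Ezh2-deficient libraries, each panel on its own scale from 0. Groups are apart for Tgfbr2, Bmpr2, Smad1 and Smad3, and Smad6 stays under 0.12 CPM.

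Of the receptor-regulated SMADs, Smad3 and Smad1 rose and Smad2 did not pass. Smad3 (ENSMUSG00000032402; GRCm38 chromosome 9, 63646767 to 63757994, minus strand) encodes the TGF-beta effector that binds DNA directly. It was at 152, 170, 189 and 134 CPM in Ezh2-deficient replicates 1 to 4 and at 73.9, 86.2, 59.6, 70.2 and 80.3 CPM in WT replicates 1 to 5. Every Ezh2-deficient library was above every WT library. It averaged 161 ± 23.8 CPM (SD, n = 4) in Ezh2-deficient cells, against 74 ± 10.1 CPM (SD, n = 5) in WT, and was 2.18-fold higher (log2 fold change 1.12, SE 0.12, edgeR adjusted p = 0.000104). This call held in all 22 alternative fits, with log2 fold changes of 0.89 to 1.33.

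Smad2 (chromosome 18, 76241580 to 76310963), the other SMAD of the TGF-beta branch, was at 65, 70.7, 70.5 and 66.6 CPM in the Ezh2-deficient libraries. In WT replicates 1 to 5 it was at 60.4, 60, 57.2, 48.2 and 73.6 CPM. WT replicate 5 was above all Ezh2-deficient libraries and the other 4 WT libraries were below them. The log2 fold change was 0.19 (SE 0.11, edgeR adjusted p = 0.218), and 0.26 without WT replicate 5 (adjusted p = 0.0472).

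Smad1 (ENSMUSG00000031681; chromosome 8, 79338395 to 79399518), a SMAD of the BMP branch, was at 17.6, 22.1, 24.8 and 16.5 CPM with Ezh2 deficiency and at 11, 12, 11.6, 9.6 and 14.2 CPM in the WT libraries. The groups did not overlap. Its mean was 20.2 ± 3.87 against 11.7 ± 1.68 CPM, 1.73-fold higher (log2 fold change 0.79, SE 0.15, edgeR adjusted p = 0.00327). Its paralogue Smad5, a gene outside the 10, averaged 133 ± 9.9 CPM, with 123 ± 12 CPM in WT, and did not pass (log2 fold change 0.11, adjusted p = 0.363).

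Both type II receptors among the 10 rose. Bmpr2 (ENSMUSG00000067336; chromosome 1, 59763400 to 59879014) was at 90, 69.4, 85.9 and 95.6 CPM in the Ezh2-deficient and at 54.7, 56.5, 53.2, 56.7 and 49 CPM in the WT libraries. The lowest Ezh2-deficient value, in replicate 2, was still above all WT values. Means were 85.2 ± 11.3 and 54 ± 3.16 CPM, 1.58-fold higher (log2 fold change 0.66, SE 0.10, edgeR adjusted p = 0.000717).

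Tgfbr2 (ENSMUSG00000032440; chromosome 9, 116084293 to 116175360), the receptor that binds TGF-beta first, was at 175, 166, 173 and 178 CPM in the Ezh2-deficient libraries. The WT libraries were at 141, 143, 128, 141 and 123 CPM. Both groups were narrow and did not overlap. The rise was 1.28-fold (173 ± 5.13 against 135 ± 9.23 CPM; log2 fold change 0.35, SE 0.07, edgeR adjusted p = 0.00456).

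Tgfbr3 (ENSMUSG00000029287; chromosome 5, 107106570 to 107289629), which encodes betaglycan, a co-receptor that presents ligand to the type II receptor, was low in both groups. It was at 7.75, 7.39, 9.06 and 6.37 CPM in the Ezh2-deficient and at 3.03, 2.37, 2.75, 6.8 and 3.2 CPM in the WT libraries. WT replicate 4 lay above Ezh2-deficient replicate 4, and the other WT libraries lay below all Ezh2-deficient libraries. The mean was 7.64 ± 1.11 against 3.63 ± 1.8 CPM (log2 fold change 1.07, SE 0.28, edgeR adjusted p = 0.0179). The call was lost without Ezh2-deficient replicate 3 (0.96, adjusted p = 0.0604). WT replicate 4 and Ezh2-deficient replicate 4 also held the most Cd8a of their groups, and without both libraries the change was 1.5 (adjusted p = 0.000808). Within the high hypoxia score libraries it was 0.78 (adjusted p = 0.227) and within the low ones 1.44 (adjusted p = 0.0397).

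The type I receptors among the 10 did not pass. Tgfbr1 (chromosome 4, 47353222 to 47414931), the TGF-beta type I receptor, was at 187, 169, 179 and 180 CPM in the Ezh2-deficient and 184, 177, 197, 145 and 167 CPM in the WT libraries. All Ezh2-deficient values lay inside the WT range (log2 fold change 0.04, SE 0.09, edgeR adjusted p = 0.777). Acvr1 (chromosome 2, 58388644 to 58567157), a type I receptor for BMPs and activins also called ALK2, was at 6.88, 9.59, 11 and 9.98 CPM against 6.8, 7.37, 6.85, 7.35 and 9.09 CPM. Ezh2-deficient replicates 2 to 4 were above all WT libraries and replicate 1 was among the lowest. Its log2 fold change was 0.32 (SE 0.16, adjusted p = 0.166).

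The inhibitory SMADs differed from each other in level rather than in a tested change. Smad7 (chromosome 18, 75367529 to 75395935), the feedback inhibitor of both branches, was at 58.5, 55.8, 65 and 49.3 CPM in the Ezh2-deficient and 48.7, 43.5, 47.7, 63.4 and 50.3 CPM in the WT libraries. The groups overlapped (log2 fold change 0.17, SE 0.11, edgeR adjusted p = 0.301), with WT replicate 4 highest in its group. Without the libraries with the most Cd8a, Ezh2-deficient replicate 4 and WT replicate 4, it was at 0.33 (adjusted p = 0.0372). Smad6 (ENSMUSG00000036867; chromosome 9, 63953076 to 64022059), the inhibitor that acts mainly on the BMP branch, had 4, 4, 2 and 6 counts with Ezh2 deficiency and 4, 0, 0, 1 and 3 in WT replicates 1 to 5. The ratio of the summed counts, scaled to library size, was 2.5 with an exact 95% interval of 1.01 to 6.75 that covers counting error only.

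**Figure D2:**
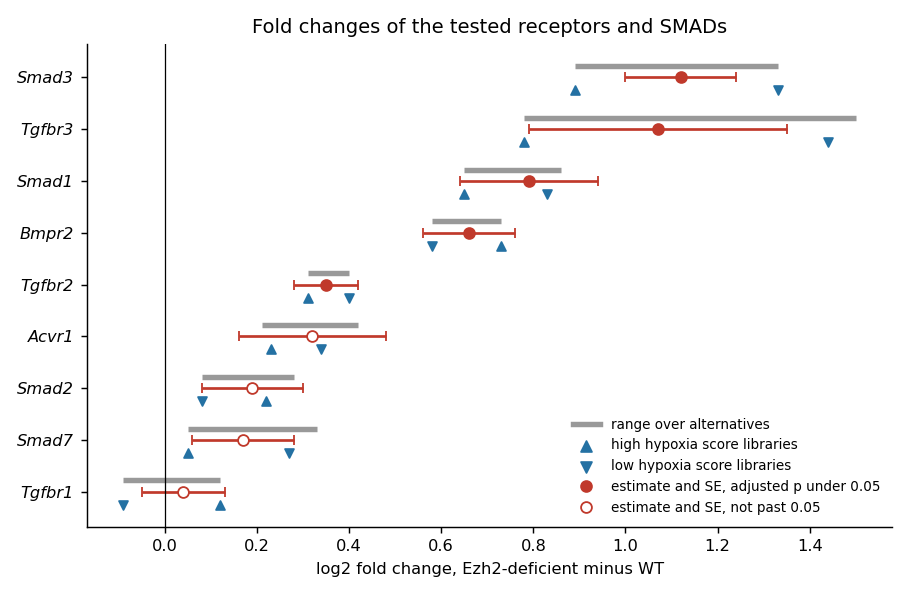
Log2 fold change of the 9 tested members (points, with SE; filled where the adjusted p was under 0.05), the range over the alternative fits (grey) and the values within the high and the low hypoxia score libraries (triangles). Smad3 is highest at 1.12 and Tgfbr1 lowest at 0.04, and Tgfbr3 has the widest range, from 0.78 to 1.5.

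Within the 5 libraries with high hypoxia scores, 4 members passed (12.6% of all genes tested there), Tgfbr3 being lost. Within the 4 libraries with low scores, 2 passed, Smad3 and Tgfbr3 (4.13% of all genes tested there), while Tgfbr2, Bmpr2 and Smad1 had log2 fold changes of 0.40, 0.58 and 0.83 (edgeR adjusted p = 0.104, 0.0843 and 0.0564). Those splits hold 2 or 3 libraries per group.

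Levels were compared between genes as CPM per kilobase of merged exons. This length takes all annotated exons of a gene together, whichever transcripts the cells make. It was 17983 bases for Bmpr2 and 3205 (Smad6) to 8781 (Smad2) for the other members. The transcripts in use were not examined, so the order of the genes and ratios between them can shift with the length used. In WT Tregs the order was Tgfbr1 (26.6 ± 2.98, n = 5), Tgfbr2 (16.5), Smad3 (13.4), Smad7 (11.2), Smad2 (6.82), Bmpr2 (3), Smad1 (1.87), Acvr1 (1.55), Tgfbr3 (0.555) and Smad6 (0.00937). The ranges over libraries overlapped between Tgfbr2 and Smad3, between Smad3 and Smad7, and between Smad1 and Acvr1, and not between the other neighbours. In Ezh2-deficient Tregs Smad3 (29.1 ± 4.3, n = 4) stood first by its mean, with a range that overlapped that of Tgfbr1 (27.4 ± 1.16). Tgfbr2 followed at 21.1, Smad7 at 12.6, Smad2 at 7.77, Bmpr2 at 4.74, Smad1 at 3.23, Acvr1 at 1.94, Tgfbr3 at 1.17 and Smad6 at 0.0282. Of these, the ranges of Bmpr2 and Smad1 overlapped. In both groups Tgfbr1, Tgfbr2, Smad2 and Smad3 had higher means than Bmpr2, Acvr1, Smad1 and the co-receptor gene Tgfbr3. This order covers members only and does not extend to all genes of the BMP branch. Outside the 10, Smad5 was at 17.9 in Ezh2-deficient and 16.5 in WT Tregs, and Bmpr1a at 17.5 and 6.57.

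**Figure D3:**
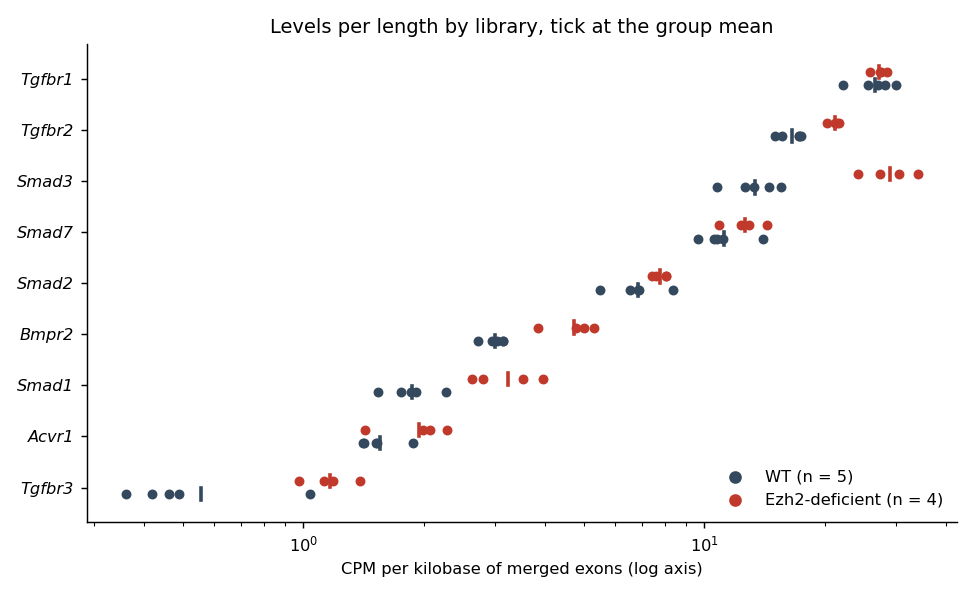
CPM per kilobase of merged exons on a log axis for 9 of the 10 genes in each library (points), with a tick at each group mean. Smad3 lies from 24.1 to 34.2 in the Ezh2-deficient and from 10.8 to 15.5 in the WT libraries, Tgfbr1 lies in 1 range in both groups, and Smad6, near 0, is left out.

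Ratios of these levels per length within a library, for pairs chosen after the values were seen and given without a test, show how the proportions differed. Smad3 over Smad2 was 3.18 to 4.25 in the Ezh2-deficient and 1.65 to 2.31 in the WT libraries. The ratio of the inhibitor Smad7 to Smad3 was 0.40 to 0.47 against 0.62 to 1.11. Neither ratio overlapped between the groups. Smad3 enters both ratios and was by itself fully separate between the groups, so their separation is not a further result. Of the other pairs, Bmpr2 over Acvr1 was 1.94 to 3.52 against 1.45 to 2.16, and overlapped. Tgfbr2 over Tgfbr1 was 0.74 to 0.79 against 0.52 to 0.77 and Smad1 over Smad5 was 0.14 to 0.22 against 0.10 to 0.15, with overlap at 1 end in each case.

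Markers of other cells were examined in the same libraries. Of 6 fibroblast and endothelial markers, 6 had counts, with a summed level of 198 to 249 CPM in the Ezh2-deficient and 164 to 221 CPM in the WT libraries. Nearly all of it was Pecam1, at 162 CPM or more in each library, while Col1a1, Col1a2, Pdgfra and Cdh5 reached at most 1.5 CPM. Pdgfrb, of the same list, was at 0.65 to 1.42 against 0 to 0.317 CPM and rose (edgeR adjusted p = 0.0137). Pdgfra, too low to be tested, had 45 counts over the Ezh2-deficient libraries against 1 in WT. Its groups did not overlap, at 0.0282 to 0.632 against 0 to 0.0264 CPM. Of 7 myeloid markers, 7 had counts, with sums of 20.5 to 27.8 against 9.29 to 17.8 CPM. Itgam and Adgre1 rose (adjusted p = 0.00817 and 0.00515), and Lyz2 and Csf1r stayed at or under 0.13 CPM. Of the same list, Cd14 had 1 count over the Ezh2-deficient libraries against 42 in WT and Flt3 had 13 against 80. Both were too low to be tested, and every Ezh2-deficient library lay below every WT library. The 4 B cell markers summed to 12.6 to 17.5 against 16.7 to 19.2 CPM, and Cd79a fell (adjusted p = 0.00716). The 2 CD8 T cell markers summed to 14.2 to 130 against 16.1 to 147 CPM. The 3 NK cell markers summed to 0 to 9.65 against 2.43 to 7.07 CPM, with Ncr1 at 0. The 3 erythroid markers summed to 2.5 to 10.9 against 0.582 to 3.01 CPM. Nearly all of this was Hba-a1, which was higher (edgeR adjusted p = 0.0245). Hbb-bs had 1 count in each group, and Hba-a2 had 1 with Ezh2 deficiency and 0 in WT. The part of these transcripts in the changes of the receptors and SMADs was not tested. Without the library highest in Cd8a in each group, all 5 members passed, while Cd8a in the remaining libraries was at 0.361 to 28.3 against 1.98 to 41.1 CPM.

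Other genes of the pathway were taken from 10 lists by role. Of these 109 genes, 83 were tested, 29 rose and 3 fell, with a median log2 fold change of 0.28. The counts by list are to be read against the 13.1% of all tested genes called higher and the 8.8% called lower, and no list was tested as a set. The count of rises was 18 to 25 when 1 library was left out, with 19 without Ezh2-deficient replicate 1 and 18 without Ezh2-deficient replicate 3 or WT replicate 3. Within the high hypoxia score libraries it was 16, and within the low ones 12.

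Of 13 other receptors and co-receptors, 10 were tested, 5 rose and 1 fell. Bmpr1a, the type I receptor that pairs with BMPR2, was at 107, 110, 123 and 106 CPM in the Ezh2-deficient and 40.3, 49.4, 29, 38.5 and 51.3 CPM in the WT libraries. The groups stood far apart (log2 fold change 1.42, SE 0.14, edgeR adjusted p = 8.01e-05). Per length, Bmpr1a over Bmpr2 was 3.14 to 4.47 against 1.55 to 2.96, a pair also chosen after the values were seen. Bmpr1a was by itself fully separate between the groups, so the separation of this ratio is not a further result. Acvr1c, a type I receptor for activins and Nodal also called ALK7, rose to 62.8 ± 5.98 from 18.3 ± 6.57 CPM (1.77, adjusted p = 0.000256). Bambi, a decoy receptor without a kinase domain, rose to 17 ± 4.29 from 4.96 ± 0.65 CPM (1.78, adjusted p = 7.14e-05). Acvr2a, an activin type II receptor, rose by 1.05 on the log2 scale (adjusted p = 0.0006), and Rgmb, a BMP co-receptor, fell by 0.72 (adjusted p = 0.0196). Cd109, a TGF-beta co-receptor that rose by 1.31 (adjusted p = 0.0395), passed in 12 of 22 alternatives.

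Smad4, the shared partner of all receptor-regulated SMADs, was at 117 to 125 CPM in the Ezh2-deficient and 95.4 to 114 CPM in the WT libraries. The groups did not overlap, but the change missed the threshold (log2 fold change 0.19, SE 0.07, edgeR adjusted p = 0.0737).

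Of 14 ligand genes, 4 were tested, 1 rose, 1 fell, and Bmp7 and Gdf11 did not pass (edgeR adjusted p = 0.351 and 0.331). Tgfb1, the main TGF-beta of T cells, fell from 248, 262, 343, 266 and 232 CPM in the WT to 182, 206, 164 and 166 CPM in the Ezh2-deficient libraries (log2 fold change -0.59, SE 0.12, edgeR adjusted p = 0.00407). Tgfb3 rose from 1.85 ± 0.515 to 11.4 ± 4.77 CPM (2.62, adjusted p = 0.000146). No library of one group entered the range of the other for either ligand. Of 11 genes for the storage and activation of latent TGF-beta, 9 were tested and 3 rose. They were Lrrc32, which encodes the surface anchor GARP (864 ± 124 against 640 ± 19.6 CPM; log2 fold change 0.43, adjusted p = 0.00746), the latent TGF-beta binding protein gene Ltbp2 (2.24, adjusted p = 0.000183) and Thbs1 (1.82, adjusted p = 0.0386), which encodes the activator thrombospondin. Lrrc32 missed the threshold in both hypoxia score classes, at 0.26 in the high (adjusted p = 0.142) and 0.57 in the low libraries (adjusted p = 0.0598). Thbs1 passed in 10 of 21 alternatives, and was at 2.51 within the high (adjusted p = 0.0522) and 0.66 within the low hypoxia score libraries (adjusted p = 0.546).

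**Figure D4:**
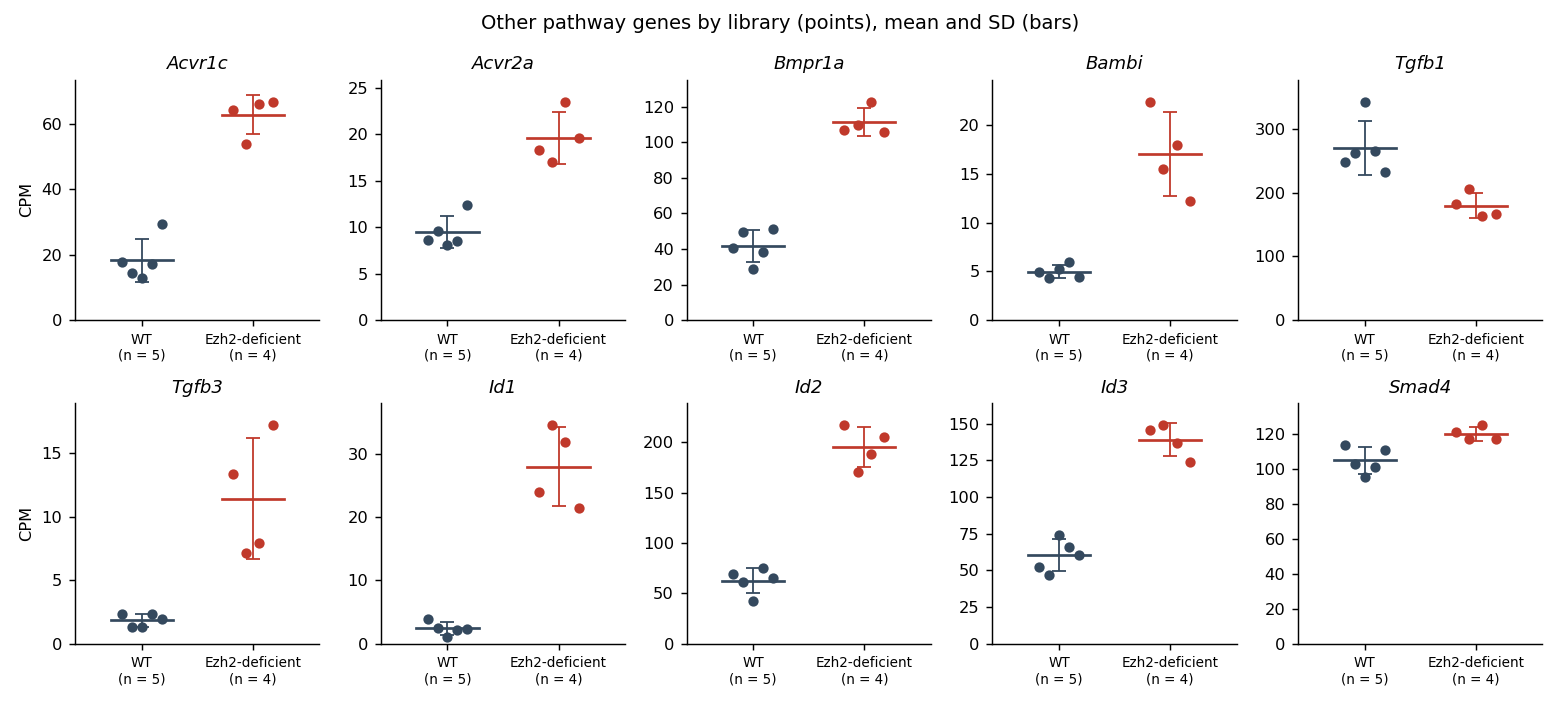
CPM of 10 further pathway genes in each library (points), with the mean and SD of the 5 WT and 4 Ezh2-deficient libraries, each panel on its own scale from 0. Bmpr1a, Acvr1c, Acvr2a, Bambi, Tgfb3, Smad4 and the 3 Id genes are higher in all 4 Ezh2-deficient libraries, and Tgfb1 is lower in all 4. Smad4 did not pass the test.

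Of 24 intracellular regulators, 24 were tested and 6 passed, all as higher, where 21.9% of all tested genes passed in either direction. Among them were 4 genes of HECT-type ubiquitin ligases that act on SMADs or receptors, Nedd4l, Wwp1, Smurf1 and Smurf2. Nedd4l rose to 92.1 ± 10 from 41.8 ± 7.34 CPM (log2 fold change 1.14, edgeR adjusted p = 0.000152). Wwp1 rose by 0.72 and Smurf1 by 0.33 (adjusted p = 0.00161 and 0.00651). Within the low hypoxia score libraries both missed the threshold (adjusted p = 0.108 and 0.115), and Smurf1 also within the high ones (adjusted p = 0.127). Smurf2 rose by 0.37 (adjusted p = 0.0415) and passed in 10 of 22 alternatives. Of 11 SMAD partners, 5 rose and 1 fell. Foxh1, a SMAD partner in embryos, had 13 counts over the Ezh2-deficient libraries, against 123 in WT (-2.87, adjusted p = 0.00292). It was at 0.0325 to 0.114 against 0.355 to 0.918 CPM, and passed the filter on low counts through the WT libraries. Under the filter of 1 CPM it was not tested. Atf3 rose by 1.63 (adjusted p = 0.0064), with Ezh2-deficient replicate 4 at 1.97 CPM inside the WT range, and missed the threshold within the high hypoxia score libraries. The coactivator gene Ep300 rose by 0.40 (adjusted p = 0.0204), and its groups overlapped. Of 7 non-SMAD kinase genes, 2 passed, also beside that 21.9%, and both rose, Mapk14 (0.40) and Map3k7 (0.25), the gene of TAK1 (adjusted p = 0.0131 and 0.0203). Ep300, Mapk14 and Map3k7 passed in 15, 19 and 14 of 22 alternatives.

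Genes known to respond to the pathway were described by branch. Of 9 BMP response genes, which include Smad6 and Smad7 of the 10, 5 were tested and 4 rose, with a median log2 fold change of 1.64. Id1, a helix-loop-helix inhibitor and direct BMP target, was at 24, 34.5, 31.9 and 21.4 CPM in the Ezh2-deficient and 3.92, 2.56, 1.09, 2.19 and 2.3 CPM in the WT libraries (3.52, SE 0.29, edgeR adjusted p = 3.45e-05). Its relatives Id2 and Id3 rose by 1.64 and 1.21 (adjusted p = 3.34e-05 and 8.07e-05), and the fourth was Bambi. Of 15 TGF-beta response genes, 14 were tested and 4 rose, with a median of 0.32, where 21.9% of all tested genes passed. These were the cell cycle inhibitor genes Cdkn2b (1.92) and Cdkn1a (1.03), Nt5e (0.38; past the threshold in 9 of 22 alternatives), which encodes CD73, and Bhlhe40 (0.48; past it in 10 of 22). The feedback genes Skil, Pmepa1 and Ldlrad4 did not pass: Skil was at 0.31 (adjusted p = 0.0583), Pmepa1 at -0.17 and Ldlrad4 at -0.05. Split by hypoxia score, Bhlhe40 was at 0.07 in the high and 0.93 in the low libraries (edgeR adjusted p = 0.72 and 0.0167). Of 10 extracellular antagonists, 3 were tested and 0 passed in edgeR, with 1 at an unadjusted p under 0.05, 0 in DESeq2 and 1 in limma-voom.

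By variation within the groups, after each group's mean was taken off, the tested genes most like each member over the 9 libraries were Apc-ps1 and Pid1 for Smad3 (Pearson r = 0.993 and 0.966), Tpm1 and Pde5a for Smad1 (0.98 and 0.978), C3 and Myh11 for Bmpr2 (0.982 and 0.951), R3hdm1 and Fam168a for Tgfbr2 (0.976 and 0.973) and Smad7 and Mmp9 for Tgfbr3 (0.942 and 0.937). These are the highest of 12110 genes compared over 9 points that share libraries, so they are a description. Tested genes without a symbol and predicted or clone-named genes were left out of the comparison.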

How the data were processed

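The authors deposited a table of whole-number counts per Ensembl gene, not normalized, with 1 column per library. Per the submitters' processing notes, STAR and GRCm38 are listed. Which program counted reads, with which annotation and strand option, is not given in the sources used here. Genes that overlap others are therefore uncertain: Tgfbr3 overlaps another transcript annotated on its strand, and Bmpr1a, Acvr1c and Tgfb3 have antisense partners with at most 19 counts where counted, Ltbp2 one with 78. Symbols, positions and merged exon lengths came from GENCODE M21, which holds 42548 of the 43432 identifiers.

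The default filter of edgeR kept 13685 of 22839 genes that had a count. After TMM scaling, the robust quasi-likelihood F-test of edgeR 4.0.16 (R 4.3.3) was run, 4 against 5 libraries, two-sided, with Benjamini-Hochberg adjustment over all genes tested. SE is the log2 fold change over the square root of F. Alternatives used limma 3.58.1, DESeq2 1.42.0 and the settings named in the closing section. Libraries within each group are biological replicates according to the design text. No pair of libraries of a group agreed within sampling noise (chi-square per degree of freedom at least 23.6). Without molecular identifiers, intervals describe counting error alone.

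The members, lists, hypoxia genes and alternatives were chosen with earlier results of these data known. All 10 members were named, with Ezh2, Tgfb1, Smad4 and, per list, up to 3 genes past the threshold with the smallest adjusted p. Smad5, Acvr2a, Rgmb, Cd109, Id3, Smurf2, Bmp7, Gdf11, Nt5e, Skil, Pmepa1, Ldlrad4 and the untested genes of the closing section were named after their values were seen. Protein features were not analysed here.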

Additional observations from a re-analysis of the deposited data

Results flagged for a closer look

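3 of 64 combinations of a gene and a group held a library whose gap to its nearest neighbour took up more of the group's range than Dixon's 95% limit allows, where chance gives about 1 in 20. Tgfbr3 in WT replicate 4 was at 6.8 CPM, against 2.37 to 3.2 CPM in the other WT libraries. Acvr1 in WT replicate 5 was at 9.09 CPM, against 6.8 to 7.37 CPM. Atf3 in Ezh2-deficient replicate 4 was at 1.97 CPM, against 7.16 to 8.13 CPM.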

How the results depend on the processing

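The 22 alternatives comprised scaling by total counts, upper quartiles or DESeq2-style size factors, no filter and a filter of 1 CPM in 4 libraries, DESeq2, limma-voom, the replicate block, each library left out, the hypoxia score or sex as a covariate, leaving out the library with the most Cd8a of each group, and either hypoxia score class by itself. The count of members higher was 5, with 4 to 6 when 1 library was left out and 2 in the low hypoxia score libraries. Tgfbr1, which never passed, changed sign, with -0.02 to 0.06 when 1 library was left out, -0.02 without the libraries with the most Cd8a and -0.09 in the low hypoxia score libraries. The other pathway genes higher numbered 29, with 18 to 25 when 1 library was left out, 16 in the high and 12 in the low hypoxia score libraries. Those lower numbered 3, with 5 with the hypoxia score as covariate and 0 in the low hypoxia score libraries. Acvr1c, Tgfb1, Foxh1, Cdkn2b and Cdkn1a missed the threshold in the low libraries alone (edgeR adjusted p = 0.0845, 0.144, 0.123, 0.0612 and 0.0588). Of all genes 3001 passed, with 1972 to 3168 when 1 library was left out (1972 without Ezh2-deficient replicate 3), 1764 in the high and 570 in the low hypoxia score libraries. The splits by hypoxia score hold fewer samples; other causes were not tested.

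Whether the replicate numbers pair the samples was not settled. Deviations of same-numbered libraries correlated at 0.153, -0.083, 0.114 and 0.187, and 0 of 4 Ezh2-deficient libraries correlated best with their own number. Hypoxia score and Cd8a level also differ between these libraries, so the correlations cannot exclude a pairing. With the replicate block, to which WT replicate 5 adds nothing, 2751 genes passed, and 5 members and 22 other pathway genes were higher.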

Other observations

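Some genes of the pathway were too low to be tested, and their counts are given; ratios of summed counts are scaled to library size, with exact 95% intervals for counting error only. Smad9, the least expressed SMAD of the BMP branch, had 0, 5, 9 and 1 counts in Ezh2-deficient replicates 1 to 4 and 1 count in the WT libraries. Inhba, which encodes the activin A subunit, had 12, 8, 3 and 0 counts in Ezh2-deficient replicates 1 to 4 and 1 count in WT. Hey1, a BMP and Notch target, had 15 against 56 (ratio 0.335, interval 0.176 to 0.601), and Nbl1, a BMP antagonist gene, 22 against 78 (ratio 0.353, interval 0.209 to 0.572). Hey1 was thus lower in the summed counts while Id1, on the same list, was higher. Bmp2 and Bmp4 had 0 counts with Ezh2 deficiency and 5 and 3 counts in WT.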
